A study of Capra hircus with 24 samples.

Results

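In milk somatic cells 184 array probes read well above background in every goat, while the same probes did so on no array of milk fat globules. The probes were taken from 43653 non-control probes by the scanner software's Cy5 flag for a signal well above background, which had to be set on all 8 arrays of milk somatic cells (MSC) and on none of the 8 arrays of milk fat globules (MFG). The rule gave 185 probes, 1 of which was dropped by accession. The members were thus chosen by the detection flags of these 16 arrays, and the contrast of MFG with MSC is given as a description, with no test. A signal short of that flag is no proof of absence, and "not well above background" is what was measured.

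The study sampled healthy female goats in 3rd lactation, of which 4 were of the breed Polish White Improved (PWI). The other 4 were Polish Fawn Improved (PFI). RNA was isolated from MSC, MFG and nucleated blood cells (PNCB) of these goats, which makes 6 groups of 4 arrays and 24 arrays in all. On every array the sample carried Cy5 and a common reference carried Cy3, with no dye swap. The reference pooled blood RNA of 7 healthy goats in 4th lactation, 4 PWI and 3 PFI. RNA of MSC and MFG was protected and extracted with a lipid tissue kit, and blood was treated with a red cell lysis buffer and extracted with another kit, and in comparisons with PNCB the kit cannot be told apart from the source. Each of the 6 groups lay on its own slide, and all MFG arrays were scanned on another day than the rest. The array is a cattle design (header build bosTau6, UMD 3.1), and mismatches to goat transcripts can lower a signal.

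Milk somatic cells are the cells found in milk. They comprise leukocytes that have left the blood, such as macrophages, neutrophils and lymphocytes, together with shed mammary epithelial cells. A milk fat globule forms when a lipid droplet buds from the apical surface of a secreting mammary cell, and it can enclose a crescent of that cell's cytoplasm with its RNA. PNCB are leukocytes that remain once red cells are lysed. In RNA of mixed cells, fewer cells of a type and less RNA per cell cannot be told apart.

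Probes come with a transcript or sequence accession, or only with their own name, and without a gene symbol. Of 26748 such identifiers, 0 were found in the RefSeq goat gene table used here. Members are therefore given by probe and accession, and marker genes of the 3 sources were not tested. The 184 members represent 183 such identifiers, and probes of 1 accession share their transcript. No member spot was saturated in Cy5.

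Most members were transcripts that blood also carried. In PNCB, whose arrays the rule did not use, 166 members were well above background on all 8 arrays, 15 on between 1 and 7, and 3 on none. The share on all 8 PNCB arrays was 90.2%, against 94.2% of the 20631 probes detected on all 8 MSC arrays. A share of 1.63% of members was on no PNCB array, against 1.93% of those probes. By either share the members lay close to the other milk cell probes.

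**Figure D1:**
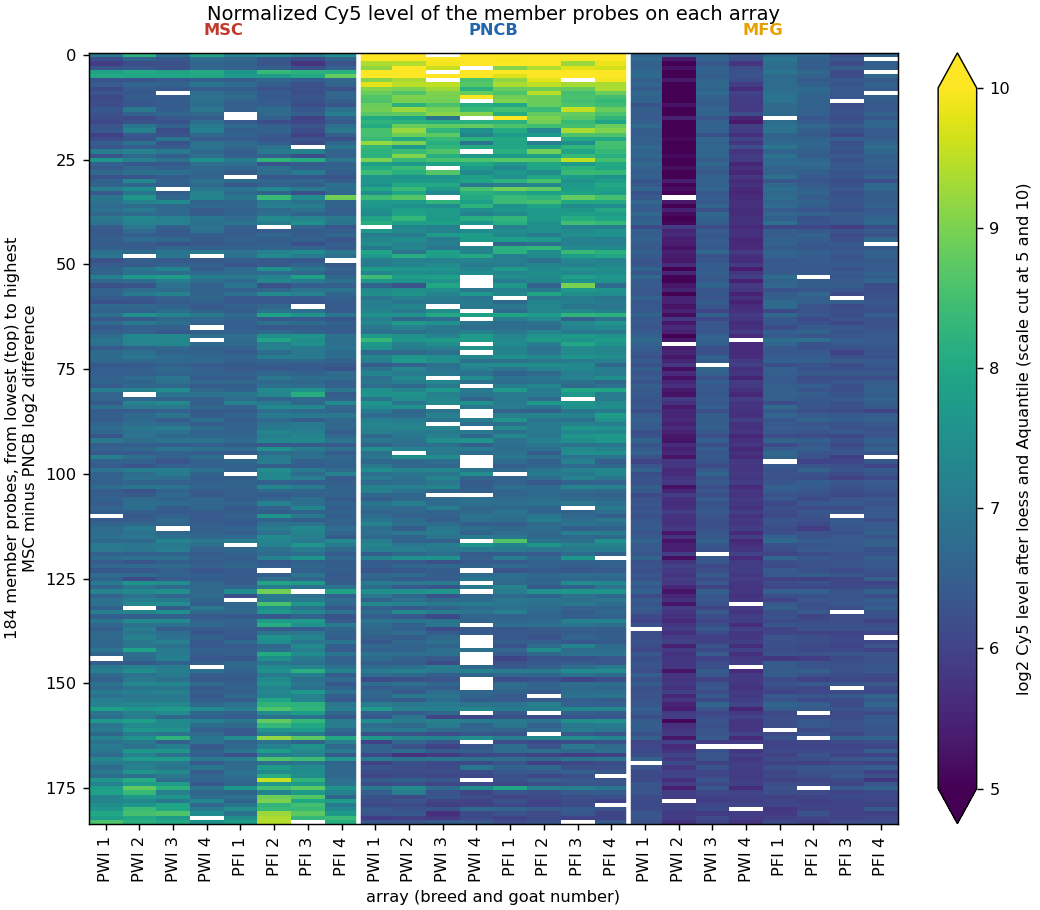
Normalized log2 Cy5 level (colour) of the 184 members (one per line) on each of the 24 arrays (columns, by source, breed and goat number), ordered by their MSC minus PNCB difference; white marks spots left out for an outlier flag. Levels in MFG are low by the choice of members, lowest on the arrays of PWI goats 2 and 4, while levels in PNCB run from the brightest of the 3 sources at the top to below MSC at the bottom.

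The members were dim in the source in which they were detected. Net Cy5 signal is the median brightness of a spot less that of its local background, in scanner units. Averaged over the 8 MSC arrays, the members' net signal had a median of 58.1 and ranged from 25.4 to 382.9, with quartiles at 41.3 and 87.8. The median of all probes detected on the 8 MSC arrays was 214.9. Of the probes with a mean MSC signal below 50, 2.37% were members. The share was 2.11% from 50 to 100, 0.72% from 100 to 200 and 0.401% from 200 to 400. Among the 7662 probes at 400 or more, 0 were members.

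The count of members rested on a few arrays. On the MFG array of PWI goat 2, 84.6% of all probes were well above background in Cy5, and on that of PWI goat 4, 75.3%. The other MFG arrays ranged from 44.1% to 51.5%, so these arrays stood apart from the rest of their group. The median net signal of the members was 104.8 on the array of PWI goat 2 and 23.0 on that of PWI goat 4, and between 7.25 and 11.5 on the other 6. Without PWI goat 2 the same rule gave 331 probes, and without the MFG arrays of PWI goats 2 and 4 it gave 678. With the scanner software's laxer flag for a positive and significant signal in place of the stricter one, it gave 31. Most members thus carried the laxer flag on at least 1 MFG array, or lacked it on an MSC array.

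Of the probes detected on all 8 MSC arrays, 15942 (77.3%) had at least 1 spot well above background on all 8 MFG arrays, and 259 on exactly 1. For 144 of these 259 the 1 array was that of PWI goat 2, and for 60 it was that of PFI goat 3. Just outside the rule, the brightest were A_73_P134666 and A_73_118352 (TC452695), with MSC medians of 497.2 and 575.2 and MFG medians of 13.2 and 13.5. Just inside it, the dimmest members were A_73_P105401 (NM_001098114) and A_73_105157 (NM_001192114), with MSC medians of 26.0 and 25.2 and MFG medians of 14.0 and 9.75. The step from member to non-member is a step in flags.

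**Figure D2:**
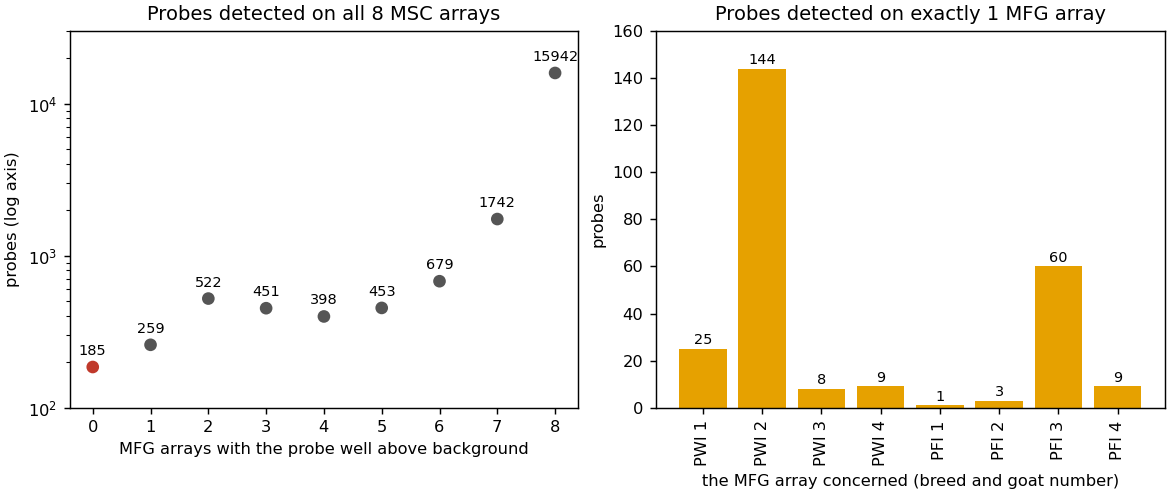
Left, the number of probes (log axis) detected on all 8 MSC arrays, by the number of MFG arrays on which they were well above background; the red point at 0 holds the 185 probes of the rule. Right, the MFG array concerned for the 259 probes detected on exactly 1, of which 144 fell to PWI goat 2.

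How far MFG lay below MSC depended on the scale. In the log2 ratios to the reference the median member differed by -0.44 between MFG and MSC, against -0.02 for all tested probes. For the 166 members on all PNCB arrays the median difference between MFG and PNCB was -0.70, against -0.13. The rule used the MSC and MFG arrays, so these are descriptions. A second measure used the Cy5 signals alone, after loess and Aquantile normalization. It set the mean of MSC against the mean over MFG arrays of the higher of the probe's own signal and the lowest signal called well above background on that array, and is called the Cy5 floor fold here. Its median over members was 1.55, it reached 1.5 at 98 members and 2 at 28, and its highest value was 4.45. It exceeded the fold in the ratios at 171 of 184 members. It therefore sets no lower limit to the fold in the ratios, and without dye swaps it is open to dye bias. The lowest signal called well above background was 5.13 (log2) on the MFG array of PWI goat 2 and 5.82 on that of PWI goat 4. On the rest of the MFG arrays it was 6.10 to 6.22. Low values on these arrays raise the Cy5 floor fold. Probe A_73_P091466, named after its value was seen, ran the other way in the ratios, with -3.45 in MSC and -3.12 in MFG.

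The Cy3 channel showed that the spots of the members took up label on the MFG arrays. It held the same blood reference on every array and was not used by the rule. On MFG arrays between 78.3% and 89.1% of members were well above background in Cy3, against 69.6% to 81.0% on MSC arrays. For all probes detected on the 8 MSC arrays the shares were higher, 92.7% to 97.3% on MFG arrays and 80.5% to 87.3% on MSC arrays. A total of 140 members were so on all 8 MFG arrays, 119 on all 8 MSC arrays, and 165 on at least 1 MFG array. On PNCB arrays the range was 70.7% to 79.9% apart from PWI goats 3 and 4, at 15.2% and 15.8%. Those arrays also had fewer probes of any kind in Cy3, 20.4% and 19.9% of all, against 43.1% to 46.5% on the other PNCB arrays. Before normalization the members' median net Cy3 signal was higher on MFG arrays, 88 to 132.25, than on MSC arrays, 66.25 to 83. After normalization between arrays, the Cy3 level was lower in MFG than in MSC at 172 of 184 members. The median difference in Cy3 was then -0.22 on the log2 scale. In Cy5 the median difference was -0.64, and all 184 were lower. The MFG arrays of PWI goats 2 and 4 weigh on this difference. The members' median normalized Cy5 level was 5.54 and 5.80 there, against 6.26 to 6.39 on the rest of the MFG arrays. The difference without these arrays was not tested. The part that the Cy3 shift has in the Cy5 difference was not tested.

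**Figure D3:**
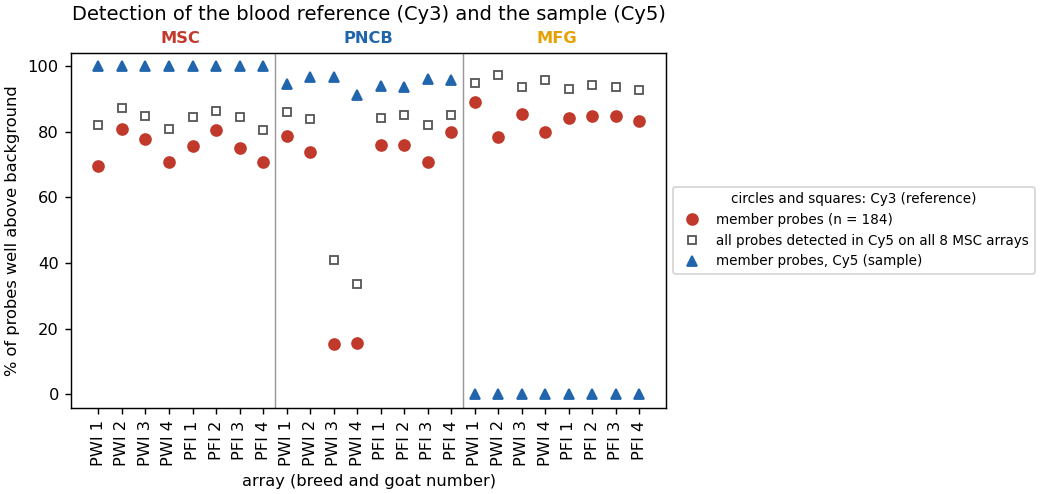
Share of probes well above background on each array (columns, by source, breed and goat number). Red circles give the members in Cy3 (the blood reference), open squares all probes detected in Cy5 on the 8 MSC arrays in Cy3, and blue triangles the members in Cy5; in MFG the members are at 0% in Cy5 by the rule and at 78.3% to 89.1% in Cy3.

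The level of the members in milk cells was next set against blood, a comparison for which the rule fixed the detection in MSC but no PNCB value. In one limma fit of 24 arrays with 6 group means, 31 of 184 members were higher and 77 lower in MSC than in PNCB at a Benjamini-Hochberg adjusted p under 0.05. The calls over all 27381 tested probes were 22.5% higher and 27.1% lower. The median member differed by -0.21 on the log2 scale of ratios to the reference, with quartiles at -0.67 and 0.23, against a median of -0.04 for all tested probes. At 55 members that were called, 29.9%, the 8 MSC ratios did not overlap the 8 PNCB ratios, where 21.4% of all tested probes were called without overlap. The rule favours probes that are dim in MSC, so these counts are not independent of it.

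The calls were then split by detection in PNCB. Among the 166 members on all 8 PNCB arrays, 15 were higher and 77 lower in MSC, with a median of -0.28. Of the 19412 tested probes that were well above background on all 8 arrays of both MSC and PNCB, 24.9% were higher and 29.2% lower, with a median of -0.01. Among the 15 members on between 1 and 7 PNCB arrays, 13 were higher and 0 lower, with a median of 0.71. Of all tested probes on the 8 MSC arrays and between 1 and 7 PNCB arrays, 74.4% were higher and 0.631% lower, with a median of 0.56. All 3 members on no PNCB array were higher, as were 97% of all such probes tested. The split itself favours higher calls in both of these classes. Within PWI goats alone 16 members were higher and 58 lower by limma, and within PFI goats alone 32 were higher and 64 lower. The shares of all tested probes called within a breed are not given here, so these counts are not read further. With the scanner software's processed signals the median member differed by -0.81, where the median of all tested probes lay at -0.19.

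**Figure D4:**
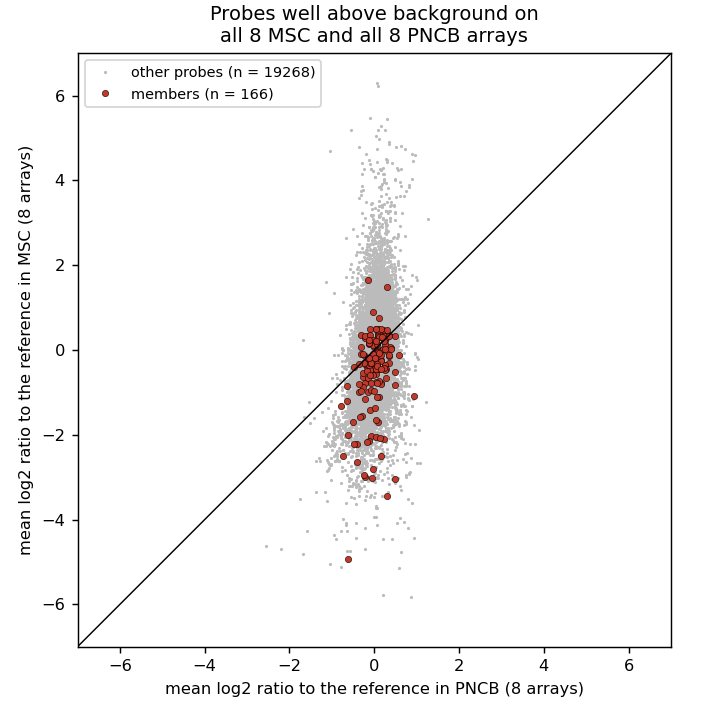
Mean log2 ratio to the reference in PNCB (x axis, 8 arrays) and MSC (y axis, 8 arrays) for each probe well above background on all 8 arrays of both; red points are the 166 members, grey the other probes, and the line marks equal ratios. The members reach further below the line than above it. A_73_108242 lies at -0.61 in PNCB and -4.93 in MSC, and A_73_117019 at -0.14 in PNCB and 1.65 in MSC.

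The 77 members lower in MSC had a mean net signal with a median of 395.7 in PNCB, 49.2 in milk cells and 23.1 in fat globules. For all probes on all 8 arrays of both MSC and PNCB, the median in PNCB was 483.8. Of the 77, 75 were well above background in Cy3 on all 8 MFG arrays. Their log2 differences had a median of -0.83 and quartiles at -1.73 and -0.54. At least 2-fold, 31 of the 166 were lower, and at least 4-fold, 13 were. Of the tested probes detected on all arrays of both sources, 9.95% were called at least 2-fold lower and 1.98% at least 4-fold lower. All 13 had lower MSC than PNCB ratios in every goat with both values. Their mean net signal ranged from 789.3 to 9969 in PNCB, from 29.1 to 327.6 in MSC and from 12.2 to 30.9 in MFG.

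Probe A_73_108242 (TC405494) had the lowest MSC level relative to blood. Its net signal ranged from 2942 to 15428 in PNCB (median 11204), from 101.5 to 420.5 in MSC (median 183.8) and from 8.0 to 127.5 in MFG (median 14.5). Its log2 ratio was -4.93 ± 0.43 in MSC (SD, n = 8) and -0.61 ± 0.72 in PNCB (SD, n = 7, 1 value being left out). MSC was 20.0-fold below PNCB (log2 difference -4.32, SE 0.25, limma adjusted p = 4.59e-12). No MSC array reached the lowest PNCB array, and the 127.5 in MFG was that of PWI goat 2.

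Probe A_73_P091466 (ENSBTAT00000055624) was similar at a lower level. Its net signal ranged from 2037 to 6038 in PNCB (median 3474), from 37.0 to 71.5 in MSC (median 48.0) and from 7.5 to 143.0 in MFG (median 15.5). The log2 ratio was -3.45 ± 0.22 in MSC and 0.30 ± 0.32 in PNCB (SD, n = 8 each). MSC was 13.5-fold below PNCB (log2 difference -3.75, SE 0.13, limma adjusted p = 8.1e-16). Its 8 MSC arrays lay close together and far below all 8 PNCB arrays.

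The accession NM_001083479 was the only one with more than 1 member probe, and it was singled out for that. Its probes A_73_P435161 and A_73_P419211 were 4.63-fold and 4.33-fold below PNCB in milk cells (log2 differences -2.21, SE 0.15, and -2.11, SE 0.18, limma adjusted p = 5.21e-11 and 3.12e-09). Median net signals were 1042 and 1005 in PNCB, 40.0 and 40.5 in MSC, and 11.8 and 11 in MFG. Another probe of the accession, A_73_115320, was well above background on all 8 MFG arrays and differed between MSC and PNCB by -0.29 (limma adjusted p = 0.0696). The 3 probes of this transcript thus did not give 1 answer.

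The 15 members that blood carried on all arrays and that were higher in milk cells differed less. Their log2 differences had a median of 0.49. The mean net signal had a median of 110.1 in MSC, 67.9 in PNCB and 24.2 in MFG. The ratios of dim probes are drawn toward 0 by the offset of 50 added in the background correction, and with the scanner software's processed signals several differences below were larger, the cause of which was not tested.

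Probe A_73_117019 (TC447523) had both the largest difference in this group and the largest Cy5 floor fold. Its net signal ranged from 94.0 to 909.5 in MSC (median 246.8), from 21.0 to 43.0 in PNCB (median 33.5) and from 3.0 to 68.0 in MFG (median 11). It was 3.68-fold higher in MSC than in PNCB in the ratios (log2 difference 1.88, SE 0.29, limma adjusted p = 1.72e-05), with 7 arrays of each source as 1 value of each was left out. The PNCB ratio of PFI goat 1 was -2.19, against -0.25 to 0.76 on the other PNCB arrays with a value, and it enlarges the difference. Net Cy3 signal was 219 there, against 35 to 52 on the other PNCB arrays. When a goat was left out, the difference ranged from 1.68 to 2.20. With processed signals the difference was 5.004, and within PWI goats alone 1.24. Against MFG the Cy5 floor fold was 4.45, and the mean log2 ratio was 1.65 in MSC and -0.14 in MFG. The MSC and PNCB ranges did not overlap, and within MSC PFI goats 2 and 3 stood highest.

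Probe A_73_P112156 (ENSBTAT00000026955) ranged from 58.0 to 405.5 in MSC (median 184.2), from 26.5 to 44.0 in PNCB (median 33.5) and from 0 to 142.0 in MFG (median 9.0). It was 2.25-fold higher in MSC than in PNCB (log2 difference 1.17, SE 0.17, limma adjusted p = 4.73e-06), in 8 of 8 goats, and with processed signals the log2 difference was 3.48. Probe A_73_110312 (TC407766) had the next largest Cy5 floor fold among members on all PNCB arrays, 3.65, with a mean log2 ratio of 0.89 in MSC and -0.54 in MFG. Its net signal had a median of 252.0 in MSC, 182.5 in PNCB and 13.5 in MFG. Here MSC and PNCB overlapped, with a log2 difference of 0.93 (SE 0.26, limma adjusted p = 0.00535) and a higher value in 6 of 8 goats. Within PFI goats alone the call was lost (0.73, limma adjusted p = 0.0598). The adjusted p ranged from 9.61e-05 to 0.0598 over the alternatives run. On the PNCB array of PWI goat 3 the ratio was -1.42, far below the other PWI goats. The net Cy5 signal there was 187, within the range of the other PNCB arrays (137 to 313.5). The net Cy3 signal of the reference was 252.5, against 72 to 97 on the other PNCB arrays. Without PWI goat 3 the difference was 0.67 (limma adjusted p = 0.0332).

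Among the 15 members seen on some PNCB arrays, A_73_120842 (NM_001046412) had the largest Cy5 floor fold, 4.01, with a mean log2 ratio of 1.80 in MSC and 0.16 in MFG. Its net signal ranged from 47.0 to 645.5 in MSC (median 311.5), from 7.5 to 30.0 in PNCB (median 14.2) and from 1.5 to 66.0 in MFG (median 13). It was well above background on only 3 PNCB arrays, so the difference is largely one from background. The log2 difference was 1.76 (SE 0.27, limma adjusted p = 9.4e-06), in 8 of 8 goats, and 4.69 with processed signals. The PNCB ratio of PWI goat 3 was -1.41, against 0.09 to 0.44 on the other PNCB arrays, and it enlarges the difference. When a goat was left out, the difference ranged from 1.48 to 1.94. Other probes of the accession, A_73_P254006 and A_73_P425716, were well above background on 5 and 1 MSC arrays and on 2 MFG arrays each. Probe A_73_116904 (NM_001100306), on 7 PNCB arrays, had MSC signals from 29.0 to 861.5 (median 120.0) and PNCB signals from 13.5 to 53.0 (median 38.5). Its ranges overlapped, and it differed by 0.87 (SE 0.27, limma adjusted p = 0.00991). That call did not hold without PWI goat 1, where the adjusted p was 0.05001, nor within PWI goats alone, where the difference was 0.43 (limma adjusted p = 0.306). With processed signals the difference was 2.41.

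The 3 members on no PNCB array were well above background in milk cells only. Probe A_73_P086501 (ENSBTAT00000002429) ranged from 81.5 to 734.0 in MSC (median 223.8), from 3.0 to 11 in PNCB (median 6.5) and from 4.0 to 117.5 in MFG (median 9.0). The Cy5 floor fold was 4.18 against MFG and 4.50 against PNCB, and the mean log2 ratio was 1.72 in MSC and 0.06 in MFG. The log2 difference from PNCB was 1.78 (SE 0.15, limma adjusted p = 2.39e-09). The 117.5 in MFG exceeded the lowest MSC value, but on the array of PWI goat 2 that signal was not well above background.

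Probe A_73_116442 (NM_001100349) had a median net signal of 153.0 in MSC against 12.2 in PNCB and 8.25 in MFG. It differed from PNCB by 1.10 (SE 0.19, limma adjusted p = 7.05e-05). Probe A_73_108139 (NM_001034340) was dimmer, with medians of 52.2, 7.0 and 14.8, and differed by 0.61 (SE 0.11, limma adjusted p = 8.22e-05). It is given because the group holds only 3, and was chosen after its values were seen. Since none of the 3 was well above background in PNCB, their values are set against signals near background. The values moved with the processing: with processed signals the differences were 5.85, 4.80 and 3.57. The Cy5 floor fold against PNCB was 2.81 for A_73_116442 and 1.76 for A_73_108139. None of these probes was well above background in Cy3 on any of the 24 arrays, so the blood reference did not show them either. Another probe of NM_001034340, A_73_P435656, was well above background on 7 MSC, 2 MFG and 4 PNCB arrays. It differed between MSC and PNCB by 0.04 (limma adjusted p = 0.733). Of NM_001100349, A_73_P339931 was so on 8 MSC, 2 MFG and 1 PNCB arrays and differed by 0.77 (limma adjusted p = 0.000459). A further probe of it, A_73_P325476, was so on 1 MSC and 1 MFG array.

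**Figure D5:**
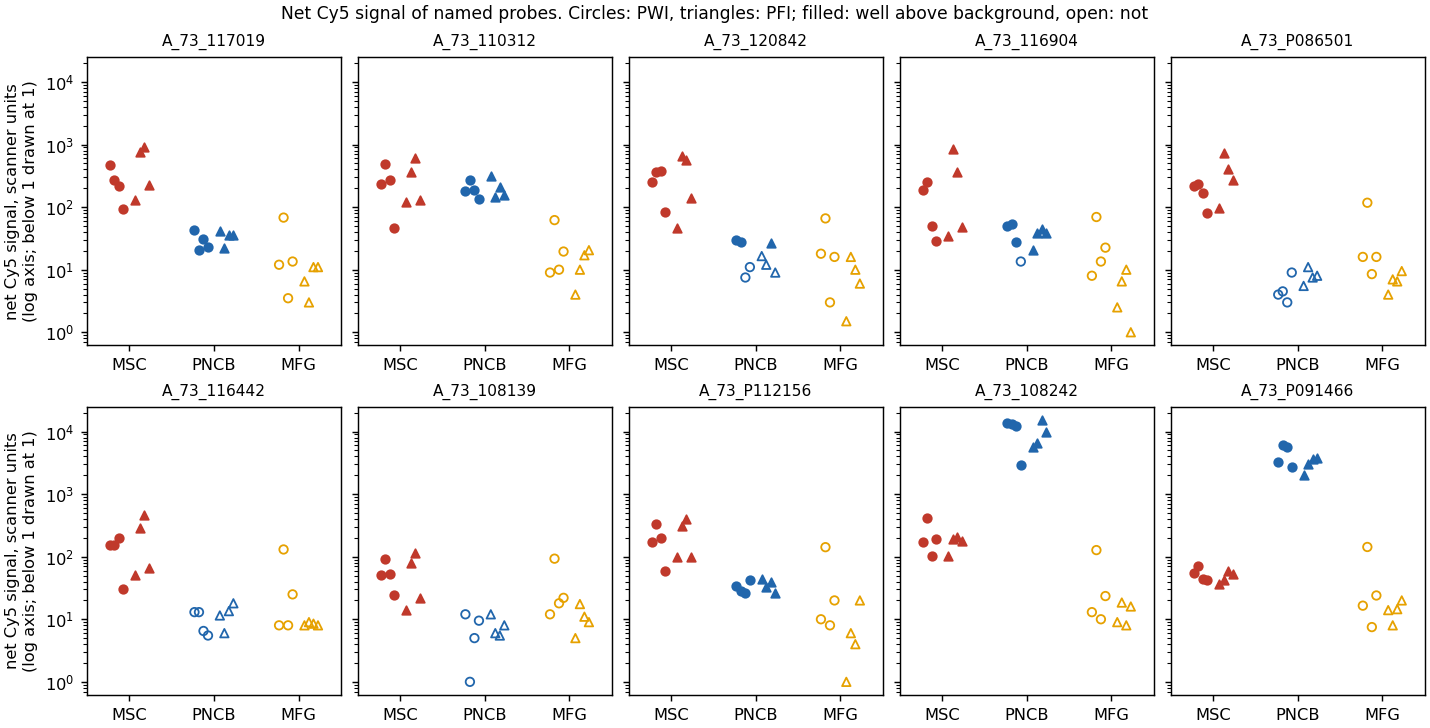
Net Cy5 signal (log axis, scanner units, values below 1 drawn at 1) of 10 named members in each array, by source; circles are PWI and triangles PFI goats, and open symbols mark arrays where the probe was not well above background. In MFG the highest symbol of each probe belongs to PWI goat 2, while A_73_108242 and A_73_P091466 lie at 2037 or more in every PNCB sample.

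Milk cells of single goats differed together in the members that were higher there than in blood. The deviation of each member from its own mean over the 8 MSC arrays was taken on the log2 ratio scale. For the 31 members higher in MSC than in PNCB, the median deviation was 0.41 in PFI goat 3, 0.36 in PFI goat 2 and 0.13 in PWI goat 2. It was -0.47 in PWI goat 4, -0.27 in PFI goat 4 and -0.26 in PFI goat 1. In PWI goats 1 and 3 it was -0.06 and 0.04. In PFI goat 2, 29 of 31 of these members lay above their own mean, and in PWI goat 4, 0 of 30 did. High and low goats occurred in both breeds. Over all probes detected on the 8 MSC arrays, the median deviation of a goat lay between -0.01 and 0.03.

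The median correlation between pairs of these members over the 8 MSC arrays was 0.66 (29 members measured on all 8), and 97.3% of pairs were positive. Among the 77 members lower in MSC the median was 0.07 (66 members) and 54.9% of pairs were positive. Among the 76 members called in neither direction it was 0.34 (63 members). Over all members the median was 0.21 (158 members) and 62.8% of pairs were positive. The mean over all members was 0.17, against 0.005 for probes detected on the 8 MSC arrays. All pairs share the same 8 arrays, so these are descriptions. The median net signal in MSC by goat was 30 to 217 for the higher members and 29.5 to 66 for the lower ones. The part of probe brightness in these correlations was not tested. Correlations among all probes higher in MSC than in PNCB are not given here. The array's own signal moved with the goats. The 3 goats with low deviations had the lowest shares of probes well above background in Cy5, between 51.2% and 54.5%, while the other 5 lay between 56.3% and 60.9%. The median net signal of all probes was 18.5 to 23.0 on those 3 arrays and 25 to 35 on the other 5. The part of array brightness in the differences between goats was not tested.

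No breed difference of a member passed the test. In MSC, 0 of 184 members differed between PWI and PFI by limma at an adjusted p under 0.05, where 0% of all tested probes did, and 7 (3.8%) reached an unadjusted p under 0.05 against 4.38% of all. In PNCB, 0 members differed, against 0.0109% of all tested probes, and 11 (5.98%) reached an unadjusted p under 0.05 against 3.56% of all. The absolute log2 difference had a median of 0.11 in MSC and 0.19 in PNCB, against 0.11 and 0.15 over all tested probes. The smallest adjusted p of a member was 0.988 in MSC and 0.972 in PNCB. For the breed difference, the 95% interval stayed inside 2-fold up or down at 163 members in MSC and 156 in PNCB. These ratios are drawn toward 0 at dim probes, so the intervals do not bound the change in RNA. Of the members, 38 had no value on the PNCB array of PWI goat 4 because their spots carried an outlier flag. Within a source the breed cannot be told apart from the slide.

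The difference between MSC and PNCB was also compared between the breeds. By limma 0 members passed, against 0.0073% of all tested probes, and 18 (9.78%) had an unadjusted p under 0.05 against 4.82% of all.

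Other probes of the same accessions gave a measure of the transcripts that the rule did not choose, on the same RNA. The array holds 194 such probes for 94 of the member accessions. On all 8 MSC arrays 92 of them were well above background, 63 were so on between 1 and 7 and 39 on none. Of the 92, 42 (45.7%) were well above background on all 8 MFG arrays too, 27 on between 4 and 7 and 23 on between 1 and 3. Among all probes detected on all 8 MSC arrays the share on all 8 MFG arrays was 77.3%. The 42 probes belonged to 30 accessions and were brighter, with a median mean MSC signal of 385.5. For those 30 accessions, a member probe was not well above background in MFG while another probe was.

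In the ratios, 152 of the other probes were tested. Their median difference between MFG and MSC was -0.31, against -0.02 for all tested probes. They come from the transcripts and arrays that chose the members, so this is a description. In the comparison of MSC with PNCB, 73 tested probes belonged to an accession whose member was called. Of these, 39 were called in the same direction and 1 in the opposite one. Over all tested probes 22.5% were called higher and 27.1% lower in MSC. The 73 probes share transcripts and RNA with the members, so this too is a description.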

How the data were processed

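The 24 scanner files hold median spot and background intensity in 2 colours, unnormalized per the file headers (software: Agilent Feature Extraction, version 10.7.3.1 in the submitters' processing notes). Processed intensity and the 0 or 1 spot flags are the software's, per the file headers. A table the authors deposited gives Cy5 over Cy3 as log10 values.

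With R 4.3.3 and limma 3.58.1, spots with an outlier flag were left out, background was corrected by normexp (offset 50), ratios were normalized by loess within arrays, and spots of a probe were averaged. Probes well above background on all 4 arrays of a group were tested (27411, of which 27381 had a value in every group). Source contrasts came from 1 fit of 24 arrays, breed contrasts from the 8 arrays of a source. Values of p were adjusted by Benjamini and Hochberg (threshold 0.05). The fit was tested on simulated data. The number of arrays limits the precision, and spots left out lower it further for some members.

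Same-numbered arrays are taken as the same goat, since the labels' titles number goats and the design text draws all sources from 8 goats; deviations of MSC and PNCB correlated between -0.06 and 0.32 within goats.

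Members, lists and tests were chosen with earlier results of these data known. Named are, at most 2 each, members with the largest Cy5 fold of MSC over the MFG detection floor in each class of PNCB detection, the largest called differences from PNCB, and probes next to the rule's limit. Lists by gene symbol were fixed but not run, and probe sequences are not used here.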

Additional observations from a re-analysis of the deposited data

Results flagged for a closer look

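In 56 groups of 4 arrays (named members in MSC and PNCB, and array summaries of the members), 4 had 1 array set apart from its group, and by chance about 2.8 of them would. The log2 ratio of A_73_110312 was -1.42 on the PNCB array of PWI goat 3, against -0.01 to 0.20 in the other PWI goats. That of A_73_120842 was -1.41 on the same array, against 0.15 to 0.42. The net Cy3 signal of the reference stood out on that array. It was 252.5 for A_73_110312, against 72 to 97 on the other PNCB arrays, and 187.5 for A_73_120842, against 30 to 40. The median net Cy5 signal of the members was 82.2 in PNCB of PWI goat 4, against 186 to 195 in the other 3, and 105 in MFG of PWI goat 2, against 8.5 to 23.0.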

How the results depend on the processing

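The number of members depended on the arrays and the flag. It was 671 with at least 7 MSC arrays and at most 1 MFG array, 678 without the MFG arrays of PWI goats 2 and 4, and 31 with the laxer flag for a positive and significant signal. Leaving out a goat gave between 187 and 331, the latter without PWI goat 2. Of the 678 probes, an alternative added after the data were seen, 612 were on all PNCB arrays, 123 were higher and 283 lower in MSC than in PNCB.

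Members higher in MSC than in PNCB numbered 48 with array weights and 16 within PWI goats alone. Their number ranged from 22 to 33, and that of lower members from 70 to 80, when a goat was left out. The median difference was -0.81 with the processed signals and -0.75 with the deposited ratios, and -0.29 to -0.18 when a goat was left out. The cause was not tested. The median of all tested probes moved from -0.04 to -0.17 with median centring, -0.19 with the processed signals and -0.14 with the deposited ratios. With the goat as a replicate block, 29 members were higher and 75 lower, with a median of -0.21, and no named call changed. The shares of all tested probes called under these alternatives are not given here, so the counts of higher and lower members are not read further. Breed gave 0 member calls with every alternative run. Of 252 values of single named members under the alternatives, 244 kept direction and call.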

Other observations

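The members differed from other milk cell probes in the kind of accession they carry. RefSeq NM accessions made up 56.5% of the members and 73.7% of the 20631 probes detected on all 8 MSC arrays. Accessions that start with TC made up 20.1% against 8.8%, and RefSeq model accessions (XM or XR) 3.8% against 1.54%. Ensembl transcripts made up 10.3% against 10.1%. Of the 77 members lower in MSC than in PNCB, 19 had a TC accession.

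In the authors' deposited table a ratio of exactly 0 stood at 3.26% of the members' values in MFG, at 2.24% in PNCB and at 0% in MSC. Its log10 ratio thus gives most members a value in MFG although their Cy5 signal was not well above background there.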
